A study of Homo sapiens with 78 samples.

Results

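Cadherins, claudins and other cell junction genes were followed in A549 cells, an established human lung carcinoma epithelial line. The genes were the cadherins CDH1, CDH2 and CDH16, the claudins CLDN1, CLDN2 and CLDN4, the tight junction genes OCLN, TJP1 and F11R, and EPCAM. They were chosen by symbol, and the 10 genes each matched 1 row among the 19652 genes of the deposited table. All cells were wild type and were kept overnight without serum before treatment. They were then not stimulated (NS), or were given 1 ng/ml of the cytokine interleukin-1β (IL-1β), the inhaled glucocorticoid budesonide at 300 nM, or IL-1β plus budesonide (the cotreatment). Poly(A) RNA was sequenced after 1, 2, 6, 12 and 24 h, which gave 20 groups and 78 libraries. A group held 4 libraries, except NS at 6 h and the cotreatment at 12 h, which held 3 each. The comparisons ask how the cytokine and the glucocorticoid, alone and together, change mRNA levels over time in this single line.

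Epithelial cells are held together by adherens junctions and sealed by tight junctions. In adherens junctions, classical cadherins bind cadherins of the neighbouring cell and connect to actin through catenins, with E-cadherin (CDH1) as the main epithelial form and N-cadherin (CDH2) as the form common in mesenchymal cells. In tight junctions, claudins and occludin (OCLN) span the membrane and ZO-1 (TJP1) joins them to the cytoskeleton. Some claudins tighten the seal, whereas CLDN2 forms pores that let cations and water pass. In airways this barrier separates inhaled matter from the tissue, and barrier loss is a known feature of airway inflammation.

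Values are TPM (transcript abundance corrected for length and library size) as rescaled between libraries by the authors, written as the mean ± SD over libraries or as 1 value per library in the order of the replicate number. Changes are differences of the mean log2(TPM + 0.5) ± SE from limma, which understate the change of genes near or under 1 TPM. Passing the test means an adjusted p of 0.05 or less, and a call also needs a log2 change of 1 or more in size. The summed TPM of a library lay between 812680 and 1009499, between 11738 and 12321 genes reached 1 TPM, and mitochondrially encoded genes took 11.8% to 17.2%. The read depth is unknown. As a check of the labels, 6 genes known to respond to these treatments (CXCL8, NFKBIA, TNFAIP3, TSC22D3, FKBP5 and PER1) summed to 58.4 to 87.7 TPM in NS libraries, 986 to 2026 TPM with IL-1β and 262 to 810 TPM with budesonide. Keratins of simple epithelia were abundant, with means over all libraries of 3174 TPM for KRT7, 3763 TPM for KRT8 and 2370 TPM for KRT18. The alveolar type II markers SFTPC, SFTPB and NKX2-1 had means of 0.305, 0.201 and 0.0289 TPM. Of 9 such markers 3 reached a mean of 1 TPM, ABCA3 at 11.1, SFTPD at 2.19 and NAPSA at 1.40 TPM. The 9 summed to 11.2 to 15.1 TPM per NS library and 10.8 to 17.1 TPM with IL-1β. With budesonide the sums were 11.0 to 37.0 TPM, and with the cotreatment 11.4 to 53.6 TPM. Of markers of other cell types, 2 of 6 immune markers (CD14 and ITGAM) reached a mean of 1 TPM, with sums of 1.60 to 7.69 TPM per NS library and 3.27 to 10.7 TPM with IL-1β, as did 2 of 6 fibroblast markers (COL1A1 and LUM), with sums of 8.32 to 25.3 TPM per NS library and 4.91 to 14.8 TPM with budesonide. Of 6 endothelial markers 0 reached it. Their part in the results was not tested. By the median absolute log2 difference from the mean of the other libraries of the group, 5 libraries lay 0.290 to 0.459 away, against at most 0.273 in the other 73. They were number 2 of the cotreatment and of budesonide at 12 h, number 2 of IL-1β at 24 h, number 3 of budesonide at 2 h and number 4 of the cotreatment at 1 h. Where a result given here for the 10 genes no longer passed or was no longer called without them, that value is given beside it. RNA came from whole cultures, so fewer expressing cells and less RNA per cell cannot be told apart.

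All 10 genes passed the filter of 1 TPM in at least 3 libraries, and none was listed at 0 in any library. TPM is a level per transcript length, so the genes can be ordered. Over the 19 NS libraries CLDN2 was highest at 55.4 ± 28.3 TPM, followed by TJP1 at 42.7 ± 2.25, CDH1 at 36.5 ± 11.7, F11R at 30.8 ± 6.05, CLDN1 at 28.4 ± 2.42, EPCAM at 22.8 ± 9.95, CDH2 at 12.8 ± 1.19 and OCLN at 9.73 ± 1.12 TPM. Neighbours in this order overlapped in range, from CLDN2 down to OCLN. CLDN2 led at 12 and 24 h, with NS means of 61.0 and 97.2 TPM. At 1, 2 and 6 h TJP1 was higher, at 42.4, 42.9 and 45.4 TPM against 37.2, 37.7 and 40.2 TPM for CLDN2. CLDN4 lay apart at 2.50 ± 0.471 TPM and CDH16 at 0.302 ± 0.165 TPM. Every NS library held more E-cadherin than N-cadherin mRNA, with values between 23.1 and 57.9 TPM for CDH1 and between 10.7 and 15.1 TPM for CDH2. Transcripts of the annotation share sequence with those of other genes for some members, so the assignment of reads is uncertain there. The share of 31-base stretches also found in another gene was 41.5% for F11R, 13.0% for OCLN, mostly with its pseudogene OCLNP1, and 9.26% for CLDN2, and it was 0 for CLDN1 and CDH16.

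**Figure D1:**
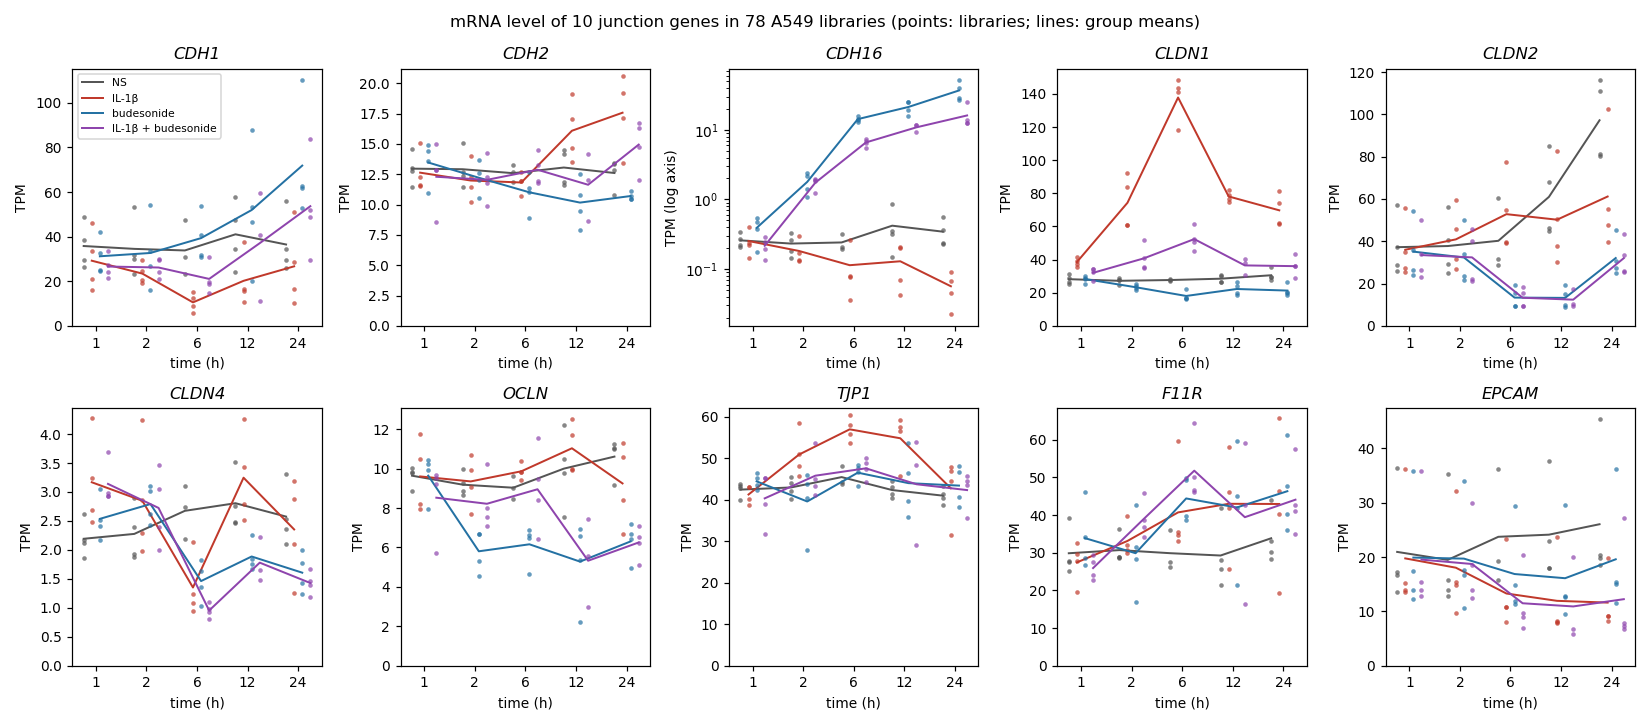
Level of the 10 genes in TPM (vertical axis, logarithmic for CDH16 only) against time after treatment in hours (horizontal axis, times evenly spaced), in NS, IL-1β, budesonide and cotreated cells. Points are libraries and lines join group means. CLDN1 peaks at 6 h with IL-1β at a mean of 138 TPM, CDH16 climbs with budesonide to a mean of 36.7 TPM at 24 h, and CLDN2 stays under 20 TPM in every budesonide-containing library at 6 and 12 h.

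Most calls belonged to CDH16, CLDN1 and CLDN2. With IL-1β against NS, 2 genes were called at 1 or more times (CLDN1 up and CDH1 down), where 16.3% of the 13327 tested genes were called. With budesonide against NS, 2 genes were called (CDH16 up and CLDN2 down), against 11.2% of tested genes. With the cotreatment against NS, 4 were called (CDH16 up, CLDN2, CLDN4 and EPCAM down), against 15.4%. Setting the cotreatment against IL-1β alone, 5 were called (CDH1 and CDH16 up, CLDN1, CLDN2 and OCLN down), against 10.7%, and against budesonide alone 2 were called (CLDN1 up and CDH16 down), against 7.46%. The cotreatment, IL-1β and budesonide contrasts share the same NS libraries. TJP1, CDH2 and F11R were not called in any of these comparisons.

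**Figure D2:**
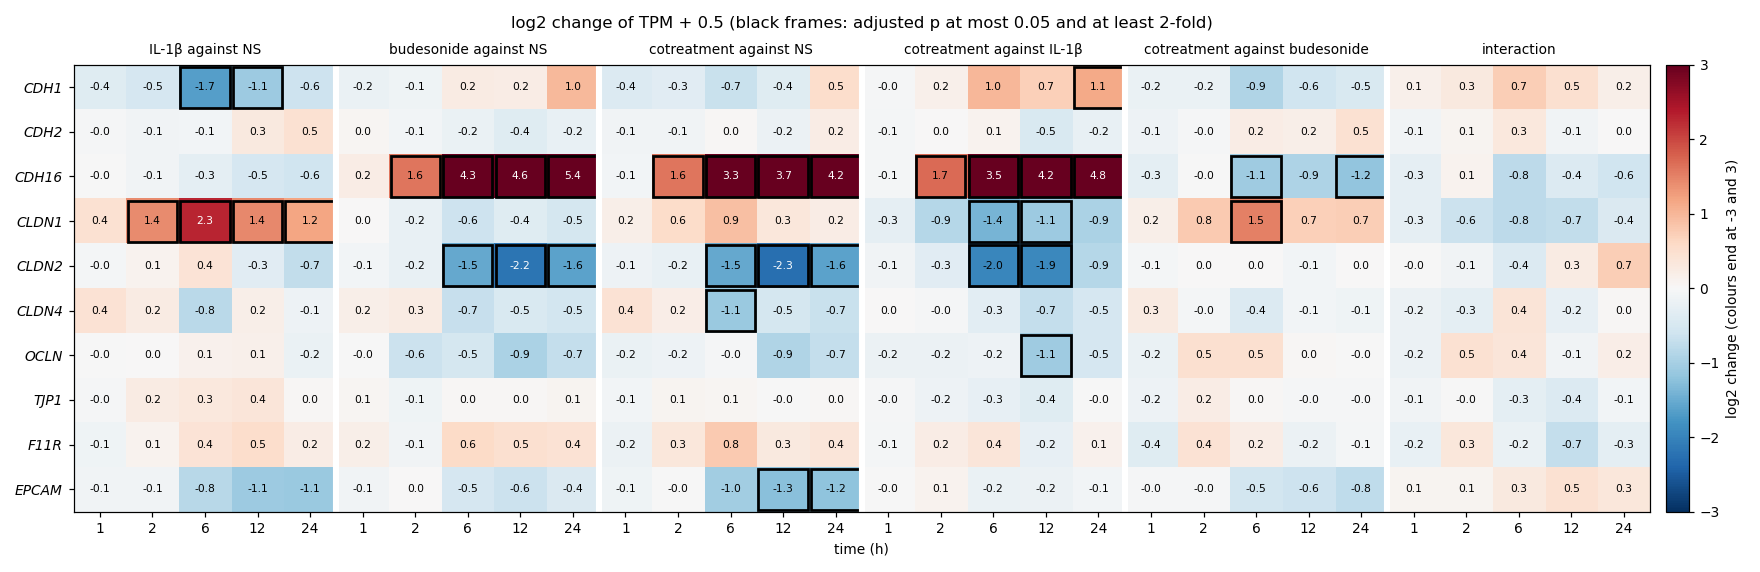
Log2 change of each gene (rows) at each time in h (columns) in 5 comparisons and the interaction (the cotreatment change less the added changes of IL-1β and budesonide), printed in each cell and coloured from −3 to 3, with stronger changes shown at the end colours. Black frames mark called results. CDH16 is framed from 2 h on wherever budesonide is compared with cells that lack it, CLDN1 is framed from 2 h on with IL-1β alone, and no interaction is framed.

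CDH16, on chromosome 16 like CDH1, encodes kidney-specific or KSP cadherin, a cadherin without the catenin-binding tail of classical forms. It rose the most of the 10 genes. In NS cells at 24 h it was at 0.233, 0.226, 0.367 and 0.551 TPM, and with budesonide at 40.1, 26.7, 28.5 and 51.4 TPM. The groups were far apart, and the ratio of their means was 107. The rise was not detected at 1 h (log2 change 0.21 ± 0.19, adjusted p = 1.00), was 1.61 ± 0.19 at 2 h (adjusted p = 1.1e-09), and reached 4.31 ± 0.20, 4.59 ± 0.19 and 5.43 ± 0.19 at 6, 12 and 24 h. Budesonide libraries held 13.9, 14.2, 12.9 and 15.8 TPM at 6 h and 24.7, 19.3, 15.6 and 25.3 TPM at 12 h, so the level was still climbing between 6 and 24 h. The log2 change at 24 h exceeded that at 6 h by 1.11 ± 0.28 (adjusted p = 0.00262). CDH16 mRNA, which stood at percentile 1.94 of the tested genes in NS cells, was then at a mean level close to that of CDH1 in NS cells at 24 h, which was 36.5 ± 13.6 TPM.

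CDH16 was lower where IL-1β was present. With the cotreatment at 24 h it was at 14.0, 12.5, 12.5 and 25.3 TPM, below all 4 budesonide libraries. The cotreatment was lower than budesonide by a log2 change of −1.06 ± 0.19 at 6 h (adjusted p = 6.7e-06), −0.92 ± 0.20 at 12 h (adjusted p = 0.000801) and −1.18 ± 0.19 at 24 h (adjusted p = 1.9e-06), while at 2 h no difference was detected (adjusted p = 0.999). Without cotreatment number 2 the 6 h value was −0.99, just under the size for a call, and without budesonide number 3 the 12 h value was −1.06 and called. The cotreatment still stood above NS by 4.25 ± 0.19 at 24 h, where the ratio of means was 46.7. Under IL-1β alone the libraries at 24 h were at 0.0448, 0.0225, 0.0673 and 0.0918 TPM, all below the 4 NS libraries. That change passed at −0.59 ± 0.19 (adjusted p = 0.0110), as it did at 12 h at −0.50 ± 0.19 (adjusted p = 0.0294). Both groups were under 1 TPM, where the pseudocount sets the size, and a pseudocount of 0.1 gave −1.09 at 12 h and −1.47 at 24 h.

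CDH1, the E-cadherin gene, fell with IL-1β at 6 and 12 h. At 6 h NS libraries held 23.1, 30.8 and 47.6 TPM and IL-1β libraries 5.94, 12.5, 8.76 and 15.0 TPM. The groups did not overlap, and the log2 change was −1.65 ± 0.44 (adjusted p = 0.00155). At 12 h IL-1β libraries were at 16.7, 10.8, 15.8 and 37.4 TPM against 34.6, 24.1, 47.5 and 57.9 TPM in NS, a log2 change of −1.08 ± 0.41 (adjusted p = 0.0312). These groups overlapped, yet each IL-1β library was below the NS library of its number, with log2 changes of −1.56 to −0.62. The 12 h call was lost when any 1 of 5 libraries was left out (IL-1β number 1, 2 or 3, NS number 3 or 4), with log2 changes between −1.05 and −0.84 and adjusted p between 0.0619 and 0.134. At 24 h IL-1β libraries ranged from 10.2 to 51.0 TPM and the test was not passed (−0.62 ± 0.41, adjusted p = 0.249). Averaged over the 5 times, the change with IL-1β was −0.84 ± 0.19 (adjusted p = 9.1e-05).

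Cells treated with budesonide held 61.8, 52.7, 62.8 and 110.2 TPM of CDH1 at 24 h, against 29.4, 26.0, 34.4 and 56.2 TPM in NS. The log2 change of 0.97 ± 0.41 had an adjusted p of 0.05005, just over the threshold, and was positive in 4 of 4 numbers, between 0.86 and 1.06. In cotreated cells at 24 h CDH1 was at 52.1, 29.7, 48.8 and 84.0 TPM, against 28.9, 10.2, 16.7 and 51.0 TPM with IL-1β alone. The difference of 1.14 ± 0.41 was called (adjusted p = 0.0245) and was positive in 4 of 4 numbers. Within numbers it was 0.72 to 1.52. In the fit without the replicate number as a block, the call rested on single libraries. Without IL-1β number 2, which is 1 of the 5 libraries that stood apart, the difference was 0.78 (adjusted p = 0.170), without IL-1β number 3 it was 1.00 (adjusted p = 0.0793), and without cotreatment number 4 it was 0.90 (adjusted p = 0.121). Without all 5 libraries that stood apart it was 0.78 (adjusted p = 0.0911). With the replicate number as a block and without those 5, it was 0.88 and passed under the size for a call (adjusted p = 0.000203). At 6 h the cotreatment stood at 14.6, 18.8, 19.8 and 31.0 TPM, between IL-1β and NS. Neither difference passed without the block (0.99 ± 0.41 against IL-1β, adjusted p = 0.0580, and −0.66 ± 0.44 against NS, adjusted p = 0.286). Within numbers the cotreatment was above IL-1β in 4 of 4, with log2 differences of 0.58 to 1.23. It was below NS in 3 of 3, with −0.69 to −0.61.

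CDH2, the N-cadherin gene, moved little and late. IL-1β libraries held 20.6, 13.4, 19.2 and 17.1 TPM at 24 h against 12.8, 13.3, 13.5 and 10.7 TPM in NS. The groups overlapped at 13.4 and 13.5 TPM, and the log2 change of 0.45 ± 0.14 passed (adjusted p = 0.00784) without reaching the size for a call. The IL-1β change at 24 h exceeded that at 6 h, which was −0.09 ± 0.15, by 0.54 ± 0.20 (adjusted p = 0.0412). With budesonide CDH2 fell by 0.36 on the log2 scale at 12 h (SE 0.14, adjusted p = 0.0455), and the cotreatment was below IL-1β at 12 h by −0.47 ± 0.15 (adjusted p = 0.0122). Neither passed without the 5 libraries that stood apart, at −0.25 (adjusted p = 0.126) for budesonide and −0.28 (adjusted p = 0.139) for the cotreatment against IL-1β. CDH1 and CDH2 thus passed at different times with IL-1β, CDH1 lower at 6 and 12 h and CDH2 higher at 24 h, and the difference between these courses was not tested.

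Among the claudins, CLDN1 rose with IL-1β and CLDN2 fell with budesonide, and the stretches upstream of their starts are printed here for comparison, with CLDN4. CLDN1 lies on chromosome 3 (GRCh38 chr3:190305707-190322446, minus strand), CLDN2 on the X chromosome (chrX:106900164-106930861, plus strand) and CLDN4 on chromosome 7 (chr7:73799542-73832690, plus strand). Each stretch is 250 bases that end just before a RefSeq start site (build GRCh38.p14), on the strand of the gene. Capitals mark matches on either strand to GGGNNNNNCC, the outline of an NF-κB site. RefSeq entries were matched for 6 of the 10 genes (CLDN1, CLDN2, CLDN4, OCLN, TJP1 and CDH2).
CLDN1 (chr3:190322447-190322696, minus strand): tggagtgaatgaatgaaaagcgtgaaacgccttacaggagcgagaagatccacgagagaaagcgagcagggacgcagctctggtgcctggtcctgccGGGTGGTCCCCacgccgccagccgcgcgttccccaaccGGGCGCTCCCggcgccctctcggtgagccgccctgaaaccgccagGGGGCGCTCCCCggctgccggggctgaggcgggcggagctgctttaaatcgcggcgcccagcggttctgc
CLDN2, first start (chrX:106899914-106900163, plus strand): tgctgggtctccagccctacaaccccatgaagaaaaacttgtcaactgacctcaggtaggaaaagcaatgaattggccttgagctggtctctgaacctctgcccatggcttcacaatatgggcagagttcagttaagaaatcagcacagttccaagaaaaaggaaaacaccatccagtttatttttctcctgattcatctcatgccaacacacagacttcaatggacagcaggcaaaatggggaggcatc
CLDN2, second start (chrX:106918110-106918359, plus strand): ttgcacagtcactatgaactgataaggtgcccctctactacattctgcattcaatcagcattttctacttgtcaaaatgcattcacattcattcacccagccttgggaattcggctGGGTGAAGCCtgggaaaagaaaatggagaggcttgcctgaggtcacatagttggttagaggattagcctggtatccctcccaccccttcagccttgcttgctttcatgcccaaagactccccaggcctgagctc
CLDN4 (chr7:73830746-73830995, plus strand): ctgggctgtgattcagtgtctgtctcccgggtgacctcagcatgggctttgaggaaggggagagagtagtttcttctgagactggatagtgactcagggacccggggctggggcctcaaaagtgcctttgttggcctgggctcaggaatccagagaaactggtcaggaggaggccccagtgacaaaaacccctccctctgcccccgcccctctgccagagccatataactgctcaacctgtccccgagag
The CLDN1 stretch held 6 overlapping matches to GGGNNNNNCC in 3 places, the second CLDN2 stretch held 1, and the first CLDN2 stretch and the CLDN4 stretch held none. Of 35116 such stretches of RefSeq starts, 54.4% held at least 1, so a match is common. Other patterns were searched on both strands as well. The glucocorticoid response element (AGAACA, any 3 bases, TGTTCT, with up to 2 mismatches) was found in 1.2% of all stretches, its one arm AGAACA in 12.4% and the E-box CACCTG, which SNAIL-type repressors bind, in 17.5%. None of these was found in the 4 printed stretches, which says only that the letters are absent from these windows. The CLDN4 stretch and the second CLDN2 stretch lie inside the annotated span of the gene.

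CLDN1, a sealing claudin, rose with IL-1β at every time. At 6 h it was at 27.5, 27.2 and 28.3 TPM in NS cells and at 141, 143, 118 and 149 TPM with IL-1β. The groups did not overlap at any of the 5 times. The log2 change was 0.45 ± 0.12 at 1 h (adjusted p = 0.0285), 1.41 ± 0.12 at 2 h (adjusted p = 6.5e-15), 2.29 ± 0.13 at 6 h (adjusted p = 5.4e-23), 1.44 ± 0.12 at 12 h and 1.17 ± 0.12 at 24 h (adjusted p = 4.2e-12). The level was thus highest at 6 h, and the change at 24 h was smaller than at 6 h by −1.12 ± 0.18 (adjusted p = 2.1e-06). Even so, IL-1β libraries at 24 h still held 74.3, 61.9, 61.5 and 81.2 TPM, against at most 35.4 TPM in NS.

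CLDN1 was lower with budesonide, in the absence and in the presence of IL-1β. With budesonide alone at 6 h the libraries held 16.5, 16.7, 16.7 and 22.3 TPM, all below NS, and the log2 change was −0.61 ± 0.13 (adjusted p = 0.000356). The changes at 12 and 24 h were −0.36 ± 0.12 (adjusted p = 0.0215) and −0.52 ± 0.12 (adjusted p = 0.000461), under the size for a call. Without the 5 libraries that stood apart the 12 h change was −0.31 and did not pass (adjusted p = 0.0606). In cotreated cells at 6 h CLDN1 was at 50.7, 52.3, 45.2 and 61.3 TPM, which lay between IL-1β and NS with no overlap on either side. Against IL-1β alone the difference was −0.85 ± 0.12 at 2 h (adjusted p = 3.0e-07), −1.39 ± 0.12 at 6 h (adjusted p = 1.1e-14), −1.10 ± 0.13 at 12 h (adjusted p = 7.6e-10) and −0.95 ± 0.12 at 24 h (adjusted p = 4.1e-09). Without cotreatment number 2, which stood apart, the 12 h value was −0.98, just under the size for a call. Against NS the cotreatment remained higher by 0.56 ± 0.12 at 2 h (adjusted p = 0.000509) and 0.90 ± 0.13 at 6 h (adjusted p = 1.3e-07), and at 24 h the difference of 0.23 ± 0.12 did not pass (adjusted p = 0.152).

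CLDN1 also departed from additivity. The interaction, which sets the log2 change under cotreatment against the added log2 changes of IL-1β and budesonide, was −0.78 ± 0.18 at 6 h (adjusted p = 0.00184) and −0.74 ± 0.18 at 12 h (adjusted p = 0.00362), and −0.57 ± 0.08 averaged over the times (adjusted p = 5.0e-08). The cotreatment was thus lower than the sum of the single changes. CDH16 had a time-averaged interaction of −0.39 ± 0.12 (adjusted p = 0.0120), but it was under 1 TPM in NS and IL-1β cells, where the pseudocount sets the size, and with a pseudocount of 0.1 the value was −0.04 (adjusted p = 0.915). For the interaction 0 of the 10 genes were called at any time by limma, against 7.97% of tested genes. With 10 genes a count of 0 is close to that share. Of the 50 results over the 10 genes and 5 times, 2 passed with a smaller size (6 with the replicate number as a block), and 7 had an unadjusted p under 0.05.

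CLDN2, the pore-forming claudin, fell with budesonide at 6 h and later. At 12 h NS libraries held 44.8, 46.2, 68.0 and 84.9 TPM, and budesonide libraries 8.86, 9.77, 19.3 and 14.9 TPM. No budesonide library reached any NS library. The log2 change was −0.09 ± 0.34 at 1 h and −0.23 ± 0.34 at 2 h, both short of the test, then −1.54 ± 0.37 at 6 h (adjusted p = 0.00122), −2.18 ± 0.34 at 12 h (adjusted p = 4.2e-07) and −1.60 ± 0.34 at 24 h (adjusted p = 8.1e-05). Cotreated cells were at 10.2, 9.39 and 17.5 TPM at 12 h, a change from NS of −2.26 ± 0.37 (adjusted p = 1.1e-06). The cotreatment and budesonide differed by −0.08 at 12 h, with a 95% interval of −0.81 to 0.66, so a difference of that size was not detectable with these libraries. Number 3, the highest budesonide library, had no cotreated library at 12 h. Within the numbers present in both groups the log2 difference was −0.05 to 0.23, and higher with the cotreatment in 2 of 3.

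The level of CLDN2 also depended on time in culture. NS libraries held 28.6, 25.8, 37.3 and 57.0 TPM at 1 h and 81.1, 80.4, 111 and 116 TPM at 24 h, a log2 difference of 1.42 ± 0.34 (adjusted p = 0.00435). It was the only one of the 10 genes called for NS at 24 h against NS at 1 h, where 0.42% of tested genes were called higher. The budesonide libraries at 24 h, at 24.9, 27.3, 45.5 and 30.5 TPM, overlapped the range of NS at 1 h, with 1 library just below it. With IL-1β at 24 h CLDN2 was at 47.5, 39.5, 55.2 and 102 TPM, and the change from NS of −0.74 ± 0.34 did not pass (adjusted p = 0.0859). It was called when IL-1β number 4 was left out (−1.02, adjusted p = 0.0215). Within numbers, IL-1β at 24 h was below NS in 4 of 4, with log2 changes of −1.02 to −0.18. The cotreatment was below IL-1β by −1.95 ± 0.34 at 6 h (adjusted p = 4.2e-06), −1.93 ± 0.37 at 12 h (adjusted p = 2.4e-05) and −0.86 ± 0.34 at 24 h (adjusted p = 0.0440).

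CLDN4, a sealing claudin, was low, and it fell with each treatment at 6 h. NS libraries held 2.19, 2.73 and 3.10 TPM, IL-1β libraries 1.08, 1.24, 0.941 and 2.14 TPM, budesonide libraries 1.03, 1.63, 1.35 and 1.83 TPM, and cotreated libraries 0.981, 0.935, 0.806 and 1.09 TPM. All treated libraries were below all NS libraries. The log2 change was −0.81 ± 0.20 with IL-1β (adjusted p = 0.000553), −0.70 ± 0.20 with budesonide (adjusted p = 0.00761) and −1.12 ± 0.20 with the cotreatment (adjusted p = 5.6e-06), the only one of the 3 called. With a pseudocount of 1 the last was −0.91 and not called. IL-1β libraries at 12 h were at 3.43, 2.79, 2.51 and 4.26 TPM, which overlapped NS (0.17 ± 0.18, adjusted p = 0.514), whereas budesonide was lower at 24 h (−0.55 ± 0.18, adjusted p = 0.0127), and so was the cotreatment (−0.66 ± 0.18, adjusted p = 0.00241). The budesonide change at 12 h passed only narrowly (−0.47 ± 0.18, adjusted p = 0.0491) and did not without the 5 libraries that stood apart (−0.44, adjusted p = 0.0808) or under 6 other alternatives.

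OCLN (chr5:69492292-69558104, plus strand) encodes occludin, a tight junction membrane protein with 4 transmembrane passes. It was lower with budesonide alone from 2 h on, and with budesonide plus IL-1β at 12 and 24 h. Budesonide libraries held 4.56 to 6.70 TPM at 2 h, against 8.65 to 9.96 TPM in NS. At 6 h they held 4.68 to 6.88 TPM, against 8.47 to 9.61 TPM in NS. Neither of these 2 changes passed without the replicate number as a block. Cotreated means at 2 and 6 h were 8.22 and 8.95 TPM, against 9.18 and 9.03 TPM in NS. At 12 h NS libraries held 10.5, 7.53, 12.2 and 9.77 TPM and budesonide libraries 5.38, 2.21, 6.94 and 6.6 TPM. The groups did not overlap, and the log2 change was −0.94 ± 0.20 (adjusted p = 0.000108), short of the size for a call. At 24 h it was −0.71 ± 0.20 (adjusted p = 0.00232). In cotreated cells OCLN was at 7.43, 2.99 and 5.56 TPM at 12 h, against 12.5, 9.99, 9.91 and 11.7 TPM with IL-1β alone, and this difference of −1.06 ± 0.21 was called (adjusted p = 6.1e-05). Number 2 at 12 h stood apart in both budesonide-containing groups and held their lowest OCLN values. Without the 5 libraries that stood apart, the 12 h changes were −0.61 for budesonide against NS and −0.73 for the cotreatment against IL-1β (adjusted p = 0.000449), so the second was no longer called. It also fell just under the size for a call without IL-1β number 1. With IL-1β alone the log2 change of OCLN lay between −0.21 and 0.15 over the 5 times, and no time passed.

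TJP1, the ZO-1 scaffold gene (chr15:29699367-29968915, minus strand), varied little. NS libraries lay between 38.8 and 48.1 TPM over the 5 times. With IL-1β at 6 h it was at 55.7, 60.3, 53.6 and 58.1 TPM, above the NS libraries at 48.1, 43.9 and 44.3 TPM. The rise was small, at 0.32 ± 0.14 on the log2 scale (adjusted p = 0.0466; 0.18 and adjusted p = 0.209 with quantile normalization), and was 0.36 ± 0.13 at 12 h (adjusted p = 0.0182). With budesonide alone the log2 change lay between −0.14 and 0.08, and no time passed. The cotreatment was below IL-1β at 12 h by −0.36 ± 0.14 (adjusted p = 0.0325), and its number 2, which stood apart, held 29.0 TPM against 53.8 and 48.2 TPM in the others. Without the 5 libraries that stood apart this value was −0.10 (adjusted p = 0.508) and did not pass.

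F11R (junctional adhesion molecule A, an immunoglobulin-type tight junction protein) passed at a single time with the cotreatment. At 6 h cotreated libraries held 46.2, 50.0, 46.6 and 64.4 TPM against 27.4, 26.1 and 36.1 TPM in NS. The groups did not overlap, and the log2 change was 0.78 ± 0.30 (adjusted p = 0.0413). The single treatments at 6 h gave 0.41 ± 0.30 with IL-1β (adjusted p = 0.277) and 0.57 ± 0.30 with budesonide (adjusted p = 0.231). Averaged over the times, budesonide and the cotreatment passed at 0.31 ± 0.13 (adjusted p = 0.0437) and 0.32 ± 0.13 (adjusted p = 0.0350), whereas IL-1β gave 0.23 ± 0.13 (adjusted p = 0.114). These values carry the shared sequence named above.

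EPCAM, an epithelial adhesion protein that marks carcinoma cells, fell with the cotreatment at 12 and 24 h and with IL-1β averaged over the times. NS libraries at 24 h held 18.6, 20.4, 19.9 and 45.4 TPM, IL-1β libraries 8.30, 9.19, 9.11 and 19.9 TPM and cotreated libraries 7.37, 7.78, 6.73 and 27.2 TPM. In each group number 4 was far above the others, so the groups overlapped although numbers 1 to 3 did not. The cotreatment was called at 12 h (−1.25 ± 0.50, adjusted p = 0.0486) and 24 h (−1.21 ± 0.46, adjusted p = 0.0313). IL-1β alone missed the threshold at 12 h (−1.09 ± 0.46, adjusted p = 0.0580) and 24 h (−1.12 ± 0.46, adjusted p = 0.0525), and passed averaged over the times (−0.65 ± 0.21, adjusted p = 0.00629). With the replicate number as a block the same changes had an SE of 0.11, and both were called (adjusted p = 7.5e-13 at 12 h and 2.1e-13 at 24 h). Within numbers, IL-1β at 24 h was below NS in 4 of 4, with log2 changes of −1.17 to −1.08. Without the block, the cotreatment call at 12 h was lost without cotreatment number 1 (−0.94, adjusted p = 0.188) or number 2 (−1.03, adjusted p = 0.194), without the 5 libraries that stood apart (−1.03, adjusted p = 0.174) and without NS number 2, 3 or 4 (adjusted p between 0.0503 and 0.152), and that at 24 h without NS number 4 (−0.91, adjusted p = 0.151) or cotreatment number 1, 2 or 3 (adjusted p between 0.0859 and 0.105). Budesonide alone gave −0.63 ± 0.46 at 12 h and −0.44 ± 0.46 at 24 h, which did not pass without the block (adjusted p = 0.338 and 0.484). With it both passed under the size for a call (SE 0.11, adjusted p = 2.5e-06 and 0.000622), and budesonide was below NS in 4 of 4 numbers at each time, by −0.88 to −0.35 at 12 h and −0.65 to −0.32 at 24 h.

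The replicate number was a stronger source of spread for EPCAM and CLDN2 than for most genes. EPCAM was highest in number 4 in 20 of 20 groups, and CLDN2 in 17 of 20. The number took 95% of the variance within groups for EPCAM and 87.4% for CLDN2, against a median of 19.8% over all tested genes, which placed them at percentiles 99.9 and 99.5. F11R was highest in number 4 in 19 of 20 groups (54.3% of the variance) and CDH1 in 18 of 20 (58.4%). CDH2 was highest there in 0 of 20 groups (57.5%). For CLDN1 the share was 16.9%, below the median. The labels name 4 independent experiments without tying them to the numbers, so what the number stands for was not tested.

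**Figure D3:**
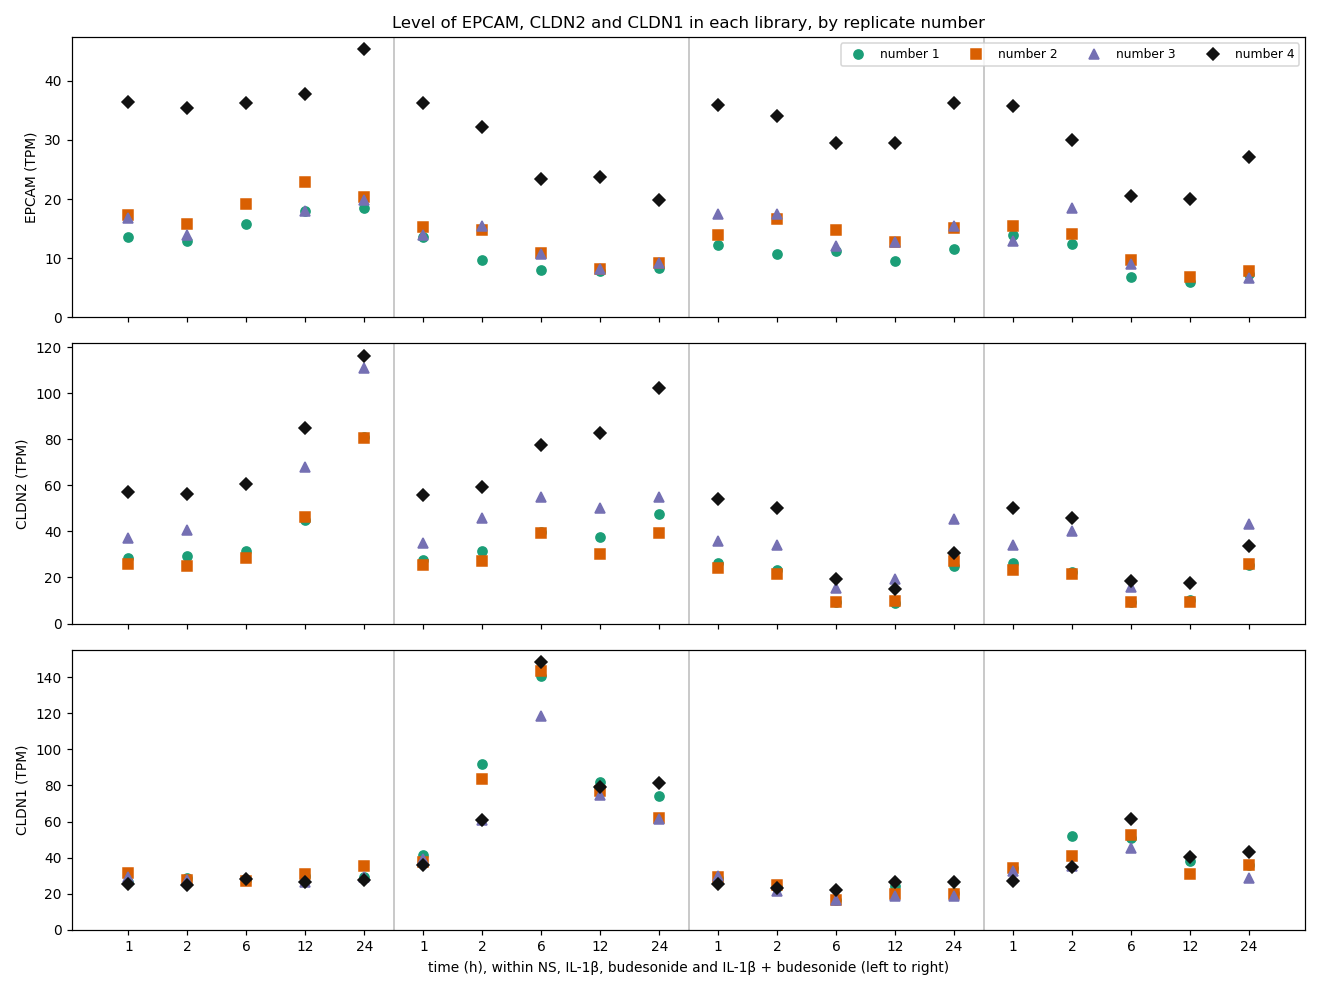
TPM (vertical axis) of EPCAM, CLDN2 and CLDN1 in each library of the 20 groups (horizontal axis, time in hours within NS, IL-1β, budesonide and cotreated cells, from left to right, separated by grey lines), with a colour and symbol for each replicate number. EPCAM is highest in number 4 in all 20 groups and CLDN2 in 17 of 20, whereas CLDN1 shows no common order and its number takes 16.9% of the variance within groups.

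Other junction genes were grouped by role, and each list is given by its calls at any time and the median of its time-averaged log2 changes. The medians over all tested genes were −0.05 for IL-1β, −0.02 for budesonide and −0.05 for the cotreatment. Desmosome genes, which anchor keratin filaments at spot junctions, had 4 of 9 called lower with IL-1β (PKP2, PKP3, PPL and EVPL, list median −0.47) and 2 of 9 called higher with budesonide (PKP2 and PPL, list median 0.11). Of all tested genes, 7.53% were called higher and 8.8% lower with IL-1β, and 4.87% higher and 6.36% lower with budesonide. PPL, the periplakin gene, went from 3.19 to 0.520 TPM with IL-1β at 6 h (log2 change −1.86 ± 0.19, adjusted p = 1.1e-12) and from 2.16 to 20.7 TPM with budesonide at 24 h (2.97 ± 0.18, adjusted p = 9.6e-23). PKP2, a plakophilin, went from 7.09 TPM in NS at 24 h to 2.37 TPM with IL-1β (−1.46 ± 0.16) and 26.7 TPM with budesonide (1.84 ± 0.16). With the cotreatment both PKP2 and PPL were called higher than NS.

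Tight junction scaffold and polarity genes had 5 of 16 tested members called lower with IL-1β (CGN, MAGI1, CRB3, LLGL2 and AMOTL2, list median −0.22) and 1 called higher with budesonide (AMOTL2, list median −0.03). LLGL2, a polarity regulator of the basolateral side, went from 57.7 to 19.0 TPM with IL-1β at 6 h (−1.59 ± 0.14, adjusted p = 6.0e-15), and CRB3, a Crumbs protein of the apical side, from 6.82 to 2.49 TPM (−1.34 ± 0.32, adjusted p = 0.000389). With the cotreatment PARD3, a core polarity scaffold, went from 82.2 to 39.4 TPM at 6 h (−1.05 ± 0.07, adjusted p = 4.0e-19). AMOTL2 was called in both directions with the cotreatment, at different times. Of 6 tested genes for other tight junction membrane proteins, 0 were called in the 3 treatments against NS by limma, with or without the block, and 3, 4 and 5 of them had an unadjusted p under 0.05 at some time with IL-1β, budesonide and the cotreatment.

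Of the other claudins 5 of 15 reached the filter. CLDN7 went from 0.402 to 3.49 TPM with budesonide at 6 h (2.12 ± 0.25, adjusted p = 3.7e-10). CLDN3 went down with IL-1β at 6 h, from 2.78 to 0.957 TPM (−1.17 ± 0.20, adjusted p = 2.3e-06), and up with budesonide at 24 h, from 2.42 to 5.44 TPM (1.03 ± 0.19, adjusted p = 6.2e-06). CLDN12 was called higher with IL-1β at 12 h, from 12.5 to 26.1 TPM. The claudins thus did not share a direction within either single treatment.

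Of other cadherins and nectins, 7 of 10 were tested, and 4 were called lower with budesonide (CDH6, CDH17, NECTIN1 and NECTIN3, list median −0.45). CDH6 went from 3.06 to 0.173 TPM at 24 h (−2.36 ± 0.28, adjusted p = 1.4e-10). CDH17 went from 31.2 TPM in NS at 24 h to 12.6 TPM with budesonide (−1.34 ± 0.47, adjusted p = 0.0182) and 9.28 TPM with IL-1β (−1.73 ± 0.47, adjusted p = 0.00263). Of the 7 catenins and plaque genes 0 were called with either single treatment without the block (5 with IL-1β and 3 with budesonide at an unadjusted p under 0.05). With the block 1 was called higher with budesonide. At 6 h mean VCL went from 58.6 to 115 TPM with budesonide, and mean CTNNB1 from 77.1 to 152 TPM with IL-1β. Only β-catenin (CTNNB1) was called higher with the cotreatment, from 80.7 to 185 TPM at 24 h (1.19 ± 0.08, adjusted p = 2.8e-19). Gap junction genes had 3 of 5 called higher with IL-1β (GJA1, GJB2 and PANX1, list median 0.63). GJB2, the connexin 26 gene, went from 0.368 to 5.31 TPM at 6 h (2.68 ± 0.18, adjusted p = 9.6e-20), and GJA1, the connexin 43 gene, from 77.6 to 169 TPM at 24 h (1.11 ± 0.16, adjusted p = 2.9e-08).

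**Figure D4:**
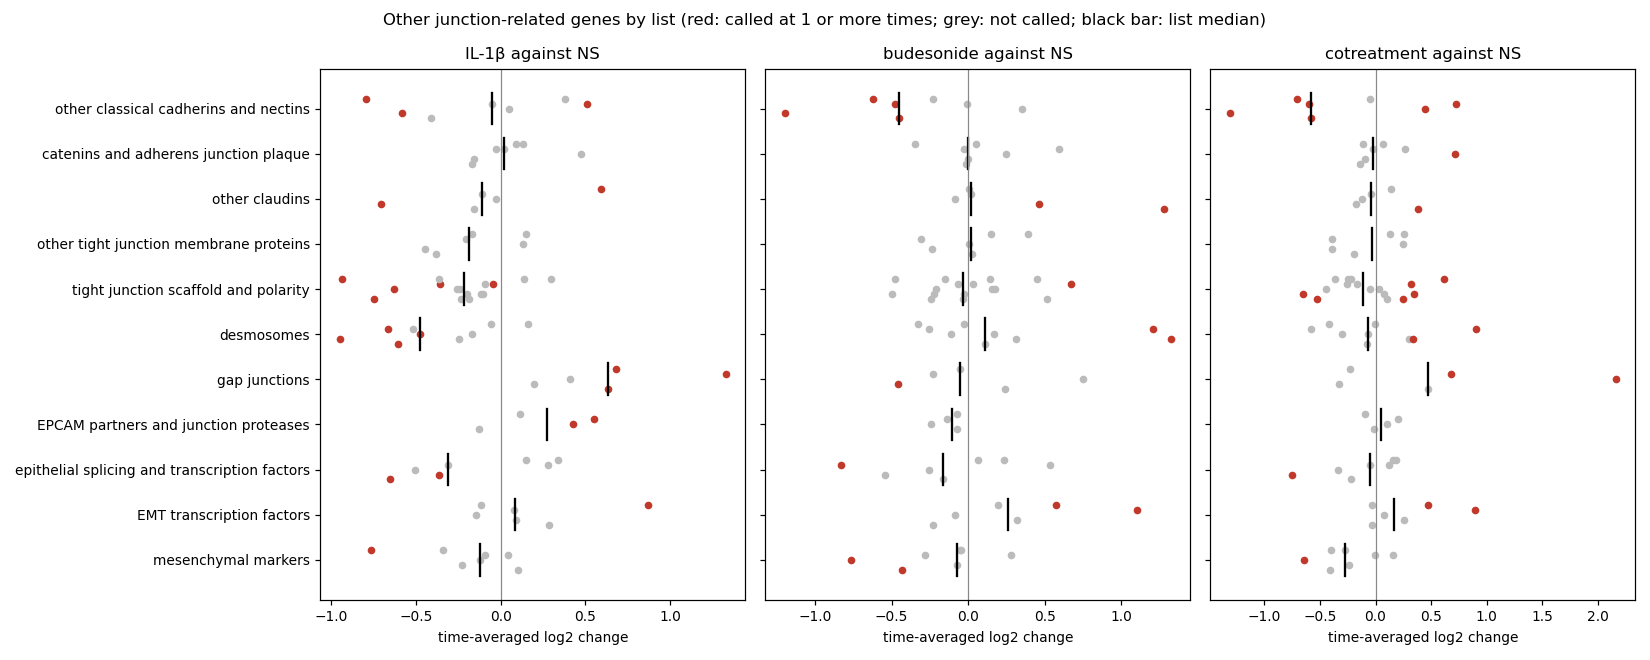
Time-averaged log2 change (horizontal axis) of each tested gene of 11 lists of junction and related genes (rows) with IL-1β, budesonide and the cotreatment against NS. Red points were called at 1 or more times, grey points were not, and black bars are list medians, from −0.47 for desmosome genes to 0.63 for gap junction genes with IL-1β.

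Genes that bear on the epithelial state were counted as well. Among epithelial splicing and transcription factors, HNF4A was called lower with IL-1β (median of the 7 tested genes −0.31) and ELF3 was called lower with budesonide, from 250 to 102 TPM at 2 h (−1.30 ± 0.10, adjusted p = 2.5e-16). Of 6 tested transcription factors of epithelial-mesenchymal transition, ZEB2 was called higher with IL-1β, from 1.8 to 5.19 TPM at 12 h (1.31 ± 0.26, adjusted p = 5.0e-05), and SNAI1 and SNAI2 higher with budesonide, SNAI2 from 0.125 to 0.985 TPM at 2 h (1.24 ± 0.18, adjusted p = 6.1e-07). Of 7 tested mesenchymal markers 0 were called higher in the 3 treatments against NS by limma (1 in each at an unadjusted p under 0.05), and ACTA2 with IL-1β, MMP2 and SPARC with budesonide and MMP2 with the cotreatment were called lower. VIM was not called, but its mean at 24 h was 393 TPM in NS, 733 TPM with budesonide and 637 TPM with the cotreatment. With IL-1β alone it was 425 TPM. Of 4 tested EPCAM partners and junction proteases, SPINT1 and ADAM17 were called higher with IL-1β.

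Likeness of pattern was described by Pearson's r of the mean log2 levels over the 20 groups, which share times and replicate numbers, so no p is given. Genes near to CDH16 included VSTM2L and HPGD (r = 0.98 each). Nearest to CDH1 were PKP3 (0.96), APBB1 (0.96) and DIPK1B (0.95), and nearest to CLDN1 were RAB32, DRAM1 and TNFAIP6 (0.96 each). CLDN2 was nearest to LRRK2 (0.91), and EPCAM to ALDH1A1 (0.95). Within the 10 genes, the highest value was 0.73, for OCLN and CLDN2, and the lowest −0.85, for CLDN1 and CDH1, followed by −0.84 for CDH16 and OCLN.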

How the data were processed

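mRNA levels were measured in A549 cells by stranded poly(A) RNA sequencing. Per the labels and methods, the authors quantified transcripts with kallisto (human, GRCh38/hg38) and rescaled them with sleuth. The deposited values are gene-level TPM, treated as a normalized signal and not rescaled again. Tool versions are not given in the sources used here. A second deposited table holds the authors' own log2 fold changes and adjusted p-values and was not used. The values of 1 library that the labels do not list (NS at 6 h, number 3) were not analysed here. Without read counts the depth is unknown, so no interval covers counting error.

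Groups came from the titles. A filter of 1 TPM in 3 or more libraries kept 13327 of 19652 genes and left out 6325. A mean per group was fitted to log2(TPM + 0.5) of all 78 libraries in limma 3.58.1 (R 4.3.3, 58 residual degrees of freedom, moderated with a trend), and two-sided p-values were adjusted by Benjamini-Hochberg over all tested genes. Tables and figures used Python 3.11.15, pandas 2.3.3 and matplotlib 3.10.9. Scripts were tested on simulated data. The 10 genes and all lists were chosen with earlier results of these data known. Of each list of other genes, up to 2 called genes with the highest and 2 with the lowest time-averaged change against NS were named by rule, and others, chosen after their values were seen, where a small count needed it. Results for some genes are not reported here.

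Replicate numbers in the titles were checked for pairing. Deviations from the group mean correlated at a median of 0.266 over the 114 same-number pairs of libraries at a time, 111 of them over 0.1, against −0.094 for different numbers. All same-number pairs were over 0.1 in 27 of 30 pairs of groups. A fit with the number as a block (55 residual degrees of freedom) was an alternative. Others were pseudocounts of 0.1 and 1, no filter, a mean of at least 5 TPM, other scalings, array weights, only the groups compared, and leaving out single libraries or the 5 that stood apart. Promoter stretches are from RefSeq (GRCh38.p14), gene positions and shared 31-base stretches from GENCODE (GRCh38).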

Additional observations from a re-analysis of the deposited data

Results flagged for a closer look

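In 17 of 180 sets of 4 libraries (1 gene in 1 group), 1 library lay far from the other 3, where chance gives about 1 in 20. In all 17 it was number 4. EPCAM gave 10 of them, all high. They were 36.4 TPM in NS at 1 h, 35.4 at 2 h and 45.4 at 24 h, then 36.2 with IL-1β at 1 h, 23.7 at 12 h and 19.9 at 24 h. With budesonide they were 29.5 at 12 h and 36.2 at 24 h, and with the cotreatment 35.8 at 1 h and 27.2 TPM at 24 h. F11R was high in IL-1β at 6 h at 59.7 TPM and in NS at 2 h at 36.4 TPM. OCLN was low in NS at 24 h at 9.15 TPM and in the cotreatment at 1 h at 5.72 TPM. CDH16 was at 25.3 TPM in the cotreatment at 24 h, where the nearest library held 14.0, CLDN1 at 22.3 TPM with budesonide at 6 h, and CLDN4 at 3.70 TPM in the cotreatment at 1 h. What number 4 stands for was not tested.

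Some changes differed between conditions or times by a test of the difference itself. For CLDN1 the change with both treatments departed from the sum of the single changes by −0.78 on the log2 scale at 6 h, −0.74 at 12 h and −0.57 averaged over the times, and for CDH16 by −0.39 averaged over the times, which was −0.04 (adjusted p = 0.915) with a pseudocount of 0.1. Between 6 and 24 h, the IL-1β change differed by −1.12 for CLDN1 and 0.54 for CDH2, and the budesonide change by 1.11 for CDH16.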

How the results depend on the processing

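No member result changed direction under any alternative run. Under the alternatives other than leaving out 1 library, the number of the 10 genes called was 2 to 3 for IL-1β, 2 to 3 for budesonide and 3 to 4 for the cotreatment against NS, and 4 to 5 for the cotreatment against IL-1β. Leaving out each of the 78 libraries in turn gave 2 to 4, 2 to 3, 3 to 5 and 4 to 5, and for the cotreatment against budesonide 2 throughout. The 4 with IL-1β (CDH1, CLDN1, CLDN2 and EPCAM) came without IL-1β at 24 h number 4. With the replicate block the count with IL-1β was 3, EPCAM being added, which also happened with only the groups compared and without any of several libraries numbered 4, and 38 of 300 results were called in place of 36, while 105 in place of 75 passed the test at any size. Of 106 member results that passed, time averages included, 29 did not pass without some single library and 26 did not under some other alternative (35 in all). The block also brought the 24 h against 6 h difference of the IL-1β change past the threshold for CLDN2 (−1.16, adjusted p = 0.0779 without and 3.8e-06 with it) and CDH1 (1.03, adjusted p = 0.208 and 0.0400), and it changed no other call. The call of EPCAM for the cotreatment at 12 h was lost under 7 alternatives, among them pseudocount 1 (adjusted p = 0.0514), both other scalings, only the groups compared and array weights (−0.70, adjusted p = 0.286), and that at 24 h with only the groups compared (adjusted p = 0.0536). The call of CDH1 for the cotreatment against IL-1β at 24 h was lost with only the groups compared (adjusted p = 0.122) and with array weights (0.89, under the size for a call), as was that of OCLN at 12 h with pseudocount 1 (−0.99), quantile normalization (−0.97) and array weights (−0.84), all under the size for a call. OCLN with budesonide at 12 h became called with pseudocount 0.1 (−1.01) and without NS number 2, budesonide number 3 or budesonide number 4, and CDH1 with budesonide at 24 h with array weights and without budesonide number 2 or NS number 4. With a mean of at least 5 TPM, where CLDN4 and other low genes were no longer tested, genes called at any time numbered 1276 in place of 2173 for IL-1β, 982 in place of 1496 for budesonide and 1226 in place of 2057 for the cotreatment against NS, 834 in place of 1431 for the cotreatment against IL-1β, 524 in place of 994 against budesonide, and 617 in place of 1062 for the interaction. Read depth is unknown, so its part in the low values of CDH16 and CLDN4 was not tested.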
